A study of Homo sapiens with 52 samples.

Results

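The mRNAs of ATF4, ATF5, DDIT3, PPP1R15A and PPP1R15B, which encode effectors of the integrated stress response, were followed through every assay of a study of the translation factors eIF2D, MCTS1 and DENR. They were taken by transcript identifier: 7 transcripts of 226882 in the table. ATF4 has 3 of the 7 (ENST00000337304.2, ENST00000404241.6 and ENST00000396680.2), and each other gene has 1 (ATF5 ENST00000423777.7, DDIT3 ENST00000346473.7, PPP1R15A ENST00000200453.6 and PPP1R15B ENST00000367188.5).

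When eIF2 is phosphorylated under stress, most initiation falls while some mRNAs with upstream open reading frames (uORFs) ahead of their main coding region are translated more. ATF4 encodes the transcription factor at the centre of this response, ATF5 a related factor, and DDIT3 the factor CHOP, which acts in prolonged stress. PPP1R15A and PPP1R15B encode the stress-induced and the constitutive subunit that direct a phosphatase to eIF2 and so reverse the phosphorylation. On ATF4, ribosomes translate a uORF and the small (40S) subunit must resume scanning to reach a later start codon. The complex of MCTS1 and DENR, which removes used tRNA from 40S subunits after termination, has been reported to be needed for this reinitiation. eIF2D resembles that complex in its domains.

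The upstream start codons nearest the 5′ ends are shown because reinitiation concerns reading frames that open ahead of the main one. Each run is 30 bases of RefSeq sequence on GRCh38.p14, printed 5′ to 3′ on the transcribed strand, with ATG in capitals, and all were found within the first 50 transcribed bases. They lie at chr22:39520577-39520606 on the plus strand for ATF4, chr12:57520465-57520494 on the minus strand for DDIT3 and chr19:48872441-48872470 on the plus strand for PPP1R15A.
ATF4: cgcccacagATGtagttttctctgcgcgtg
DDIT3: gcactgagcgtatcATGttaaagATGagcg
PPP1R15A: cagttgttgatcttATGcaagacgctgcac
In ATF4 the ATG at base 28 of the transcript was followed at once by a stop codon at base 31, a reading frame with nothing but its start. The DDIT3 run held ATG at bases 35 and 44, in 1 frame and with no stop in that frame inside the window, and the PPP1R15A run held 1 ATG at base 35. None of the 3 ATF5 windows and not the 1 PPP1R15B window held an ATG in those 50 bases, which says nothing of uORFs further in. ATG was found in 40.2% of the 35116 RefSeq windows, so its presence is common. RefSeq start sites were matched by gene symbol, not to the counted transcripts.

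HEK293T is a transformed human embryonic kidney line, and the labels name no stress treatment for any group. RNA-seq (polyadenylated mRNA) and Ribo-seq (mRNA fragments protected by ribosomes, from lysates with cycloheximide) had 2 libraries each for MCTS1 KO #1, MCTS1 KO #2, wild type (WT), siDENR #1, siDENR #2 and siControl. TCP-seq, which captures fragments under ribosomal complexes, had 2 libraries each for eIF2D KO #1, eIF2D KO #2, MCTS1 KO #1 and MCTS1 KO #2, and 4 for WT. In 40S Sel-TCP-seq, small-subunit complexes were selected through eIF2D-V5, MCTS1-V5 or DENR-V5, with 2 libraries each. Whether a KO number is a single clone, how the KO and V5 cells were made and how far each siRNA lowered DENR is not stated in the labels, and neither the targeted genes nor markers of HEK293T were checked. The numbered KO lines are called clones below. The labels do not name separate cultures, and p-values here cover only library-to-library spread, part of which may be technical.

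Totals were 76967099 to 301214608 counts in RNA-seq, 16370112 to 193940882 in Ribo-seq, 1609303 to 5053637 in TCP-seq and 356019 to 2582917 in Sel-TCP-seq. MCTS1 KO #1 had the deepest libraries of RNA-seq and Ribo-seq, so its counts have the least counting error. Depth does not lower the other spread between replicates, so this clone is not thereby the better measured. Levels are given as CPM, counts scaled to a common library total of 1e6. In bulk libraries, a change in how many cells hold an mRNA and a change per cell cannot be told apart. CPM are not set per length, so they are compared between groups and not between genes. The 3 ATF4 transcripts differed by at most 2.17% in any library and are given once, as ENST00000337304.2. A count covers the whole counted feature, so footprints on a uORF and on the main reading frame cannot be told apart, and a higher Ribo-seq level is not a measure of more protein.

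In WT cells 4 of the 5 mRNAs carried few footprints for their mRNA level. The ratio of mean Ribo-seq CPM to mean RNA-seq CPM was 0.209 for ATF4, 0.255 for ATF5, 0.189 for DDIT3 and 0.189 for PPP1R15A, against a median of 0.777 over 108724 transcripts. Only 5.22% of all transcripts had a ratio below that of ATF4, and 7.85%, 4.24% and 4.27% had one below those of ATF5, DDIT3 and PPP1R15A. PPP1R15B stood nearer the bulk, at 0.511, with 27.8% of transcripts below it. TCP-seq levels were set against footprints in the same way. The ratio of TCP-seq to Ribo-seq CPM was 4.63 for ATF4 and 4.73 for PPP1R15B, higher than in 92.2% and 92.5% of 49478 transcripts, whose median was 1.17. It was 3.64 for PPP1R15A, above 88.5% of transcripts, and 2.01 for ATF5, above 73.0%. Relative to mRNA, ATF4 had a TCP-seq level near the middle, with a ratio of 0.965 against a median of 0.869, while PPP1R15B had 2.42, above 91.6% of transcripts. These ratios are descriptions without a test, and they cancel transcript length only if the same features were counted in each assay, which is not given.

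**Figure D1:**
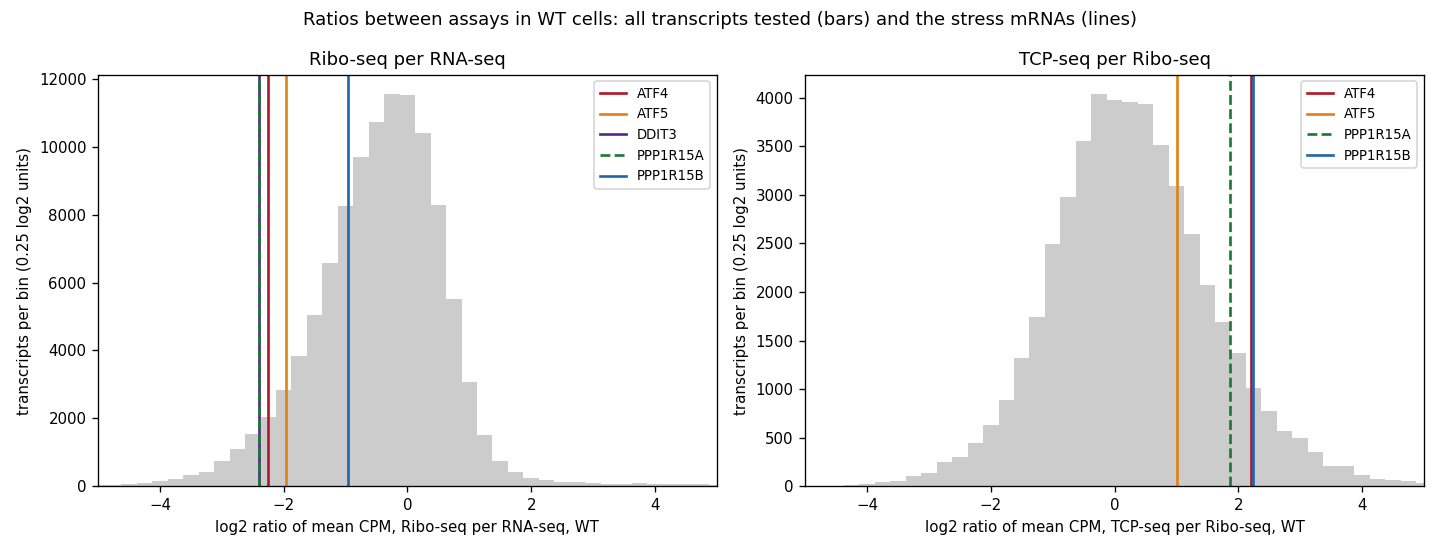
Histograms of the log2 ratio of mean WT CPM between assays over all transcripts that passed the count filter in both (left, Ribo-seq per RNA-seq; right, TCP-seq per Ribo-seq), with a vertical line for each stress mRNA. On the left the lines of DDIT3 and PPP1R15A lie on each other (0.189 each as a plain ratio) at the far left with ATF4 (0.209) and ATF5 (0.255), and on the right ATF4 (4.63) and PPP1R15B (4.73) lie at the far right; DDIT3 did not pass the TCP-seq filter and has no line there.

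Loss of MCTS1 was set against WT to see how these mRNAs behave without 1 partner of the complex. The ATF4 mRNA was higher in both clones, and its footprints were higher on average but unequally so. In RNA-seq ATF4 had 153 and 157 CPM in MCTS1 KO #1 and 162 and 164 CPM in MCTS1 KO #2, against 138 and 137 CPM in WT. All 4 KO libraries lay above both WT libraries. The log2 change was 0.21 ± 0.03 (SE of the mean of both clones, 2 libraries per group, adjusted p = 1.6e-07, edgeR), being 0.13 in clone #1 and 0.29 in clone #2, both past the threshold.

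PPP1R15A mRNA moved in 1 clone only. It had 8.14 and 7.88 CPM in MCTS1 KO #1 and 3.28 and 3.07 CPM in MCTS1 KO #2, against 3.56 and 3.37 CPM in WT. Clone #1 lay far above WT, while clone #2 lay just below both WT libraries. The log2 change was 1.17 ± 0.08 in clone #1 (adjusted p = 1.7e-20) and -0.08 ± 0.10 in clone #2 (adjusted p = 0.66), and the difference between the clones was 1.26 ± 0.08 (adjusted p = 7.5e-22). The mean change of 0.55 ± 0.08 (adjusted p = 8.1e-08) therefore stands for neither clone.

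DDIT3, whose transcription ATF4 is known to drive, went the same way as PPP1R15A. Its mRNA had 2.98 and 2.73 CPM in MCTS1 KO #1 and 2.00 and 1.67 CPM in MCTS1 KO #2, against 2.10 and 2.05 CPM in WT. Clone #1 was above and clone #2 below both WT libraries. The change was 0.43 ± 0.11 in clone #1 (adjusted p = 0.0011) and -0.14 ± 0.13 in clone #2 (adjusted p = 0.57), the clones differed by 0.57 ± 0.11 (adjusted p = 2.4e-05), and their mean of 0.15 ± 0.11 was not called (adjusted p = 0.35).

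PPP1R15B mRNA was also called on the mean, with 24.9 and 22.8 CPM in MCTS1 KO #1 and 19.8 and 19.7 CPM in MCTS1 KO #2, against 18.6 and 19.6 CPM in WT. Clone #2 exceeded the higher WT library by a narrow margin. The mean log2 change was 0.19 ± 0.04 (adjusted p = 4.6e-04), with 0.29 in clone #1 and 0.09 in clone #2, the second not called (adjusted p = 0.25). ATF5 had a change of 0.08 ± 0.07 (adjusted p = 0.45) and 5.2 to 5.62 CPM in the KO libraries, against 4.80 and 5.41 CPM in WT, so the groups overlapped. In all, 3 of the 5 mRNAs were called, each higher, where 24.9% of 131951 transcripts were called in either direction and 11.4% as higher. The median change of the 5 was 0.19, and that of all transcripts -0.01.

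**Figure D2:**
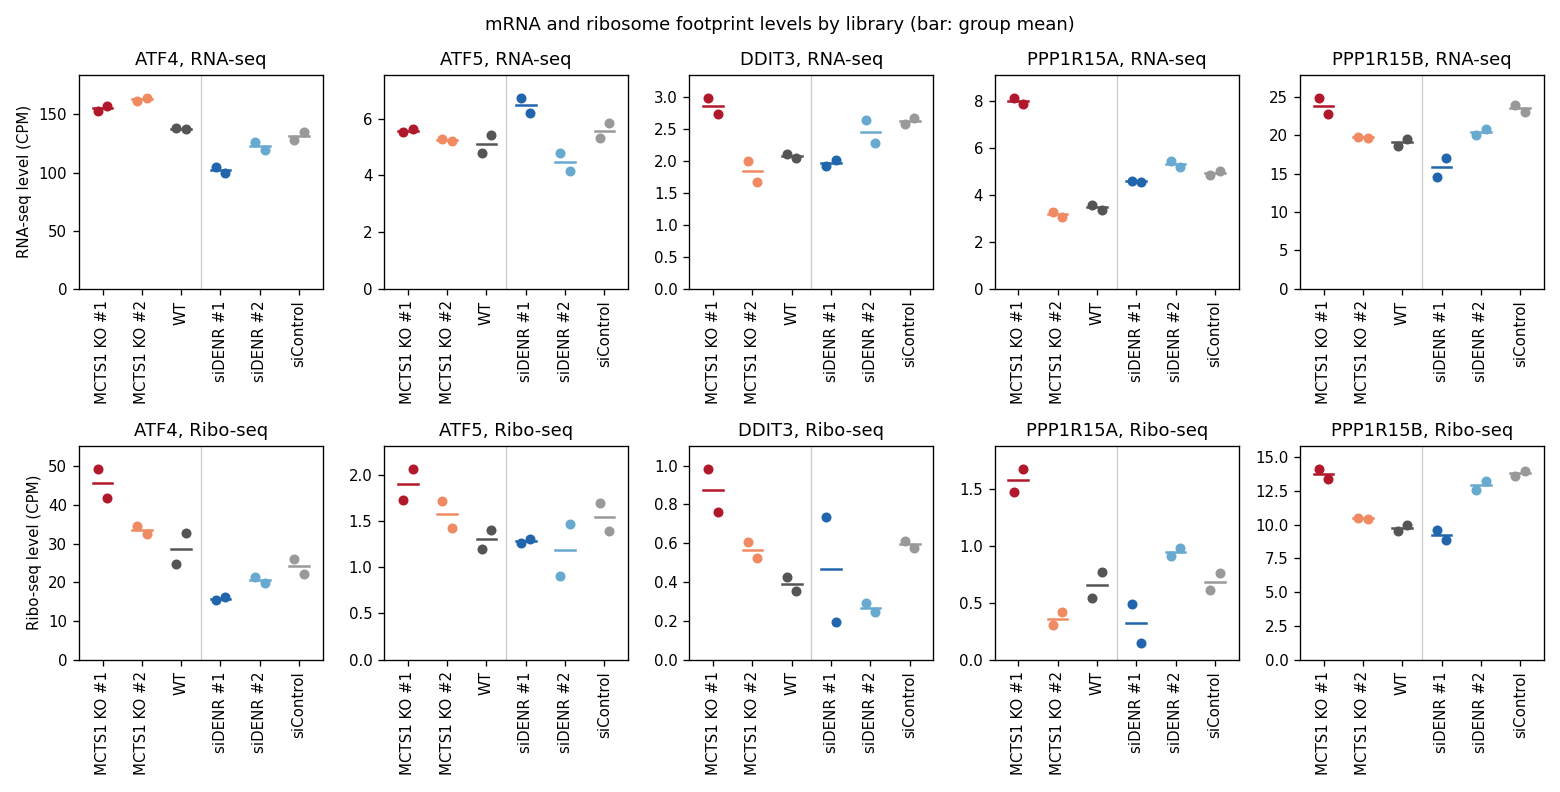
RNA-seq (top) and Ribo-seq (bottom) levels in CPM of the 5 mRNAs, each point a library and each bar a group mean, with MCTS1 KO left of WT and siDENR left of siControl. ATF4 footprints were 49.4 and 41.8 CPM in MCTS1 KO #1 and 15.3 and 16.3 CPM in siDENR #1, and PPP1R15A mRNA stood apart in MCTS1 KO #1.

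Among footprints, ATF4 alone passed the threshold on the mean of the clones, and not with the replicate number as a term (0.43, adjusted p = 0.080). In Ribo-seq ATF4 had 49.4 and 41.8 CPM in MCTS1 KO #1 and 34.7 and 32.5 CPM in MCTS1 KO #2, against 24.6 and 32.8 CPM in WT. Clone #1 lay above both WT libraries, and clone #2 overlapped WT replicate 2. The mean log2 change was 0.43 ± 0.10 (adjusted p = 0.025), with 0.65 ± 0.11 in clone #1 (adjusted p = 0.0014) and 0.21 ± 0.12 in clone #2 (adjusted p = 0.44), and the clones differed by 0.44 ± 0.11 (adjusted p = 0.015). The call on the mean was lost without MCTS1 KO #2 replicate 1 (adjusted p = 0.11) and without replicate 2 of the same clone (adjusted p = 0.077). The change was 0.25 without WT replicate 1 and 0.65 without WT replicate 2.

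The other 4 were not called on the mean, so 1 of 5 was called, higher, where 6.1% of 115412 transcripts were called and 2.72% as higher. In clone #1 alone 4 of the 5 were called, each higher, where 16.6% of transcripts were called and 8.12% as higher. PPP1R15A had 286 and 249 footprints, or 1.47 and 1.68 CPM, in MCTS1 KO #1 and 9 and 12 footprints, or 0.304 and 0.419 CPM, in MCTS1 KO #2, against 14 and 41, or 0.543 and 0.768 CPM, in WT. Clone #1 was above and clone #2 below both WT libraries, with changes of 1.19 ± 0.24 (adjusted p = 0.0012) and -0.93 ± 0.37 (adjusted p = 0.20) and a difference of 2.12 ± 0.30 (adjusted p = 1.5e-05).

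DDIT3 footprints numbered 191 and 113 (0.985 and 0.763 CPM) in MCTS1 KO #1 and 18 and 15 (0.608 and 0.523 CPM) in MCTS1 KO #2, against 11 and 19 (0.427 and 0.356 CPM) in WT. All 4 KO libraries lay above both WT libraries, yet the mean change of 0.87 ± 0.31 did not pass (adjusted p = 0.093). The change in clone #1, 1.19 ± 0.30, did (adjusted p = 0.0079), and that in clone #2, 0.56 ± 0.38, did not (adjusted p = 0.52). PPP1R15B had 14.2 and 13.4 CPM in MCTS1 KO #1 and 10.5 and 10.4 CPM in MCTS1 KO #2, against 9.50 and 10.0 CPM in WT. Its mean change of 0.29 ± 0.09 narrowly missed (adjusted p = 0.060), with 0.49 ± 0.10 in clone #1 (adjusted p = 0.0013), and it passed without WT replicate 2 (adjusted p = 0.041). ATF5, with 1.43 to 2.07 CPM in the KO libraries and 1.20 and 1.40 CPM in WT, did not overlap WT and changed by 0.37 ± 0.19 (adjusted p = 0.27).

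Translational efficiency, the change in footprints relative to the change in mRNA, showed no call for any of the 5 on the mean of the clones, with edgeR or with DESeq2, where 0.872% of 108757 transcripts were called by edgeR. At an unadjusted p under 0.05 only DDIT3 remained, with a log2 change of 0.73 ± 0.32 (adjusted p = 0.39). ATF4 changed by 0.19 ± 0.11 (adjusted p = 0.57). The mean hid opposite signs, since the ATF4 value was 0.49 ± 0.12 in clone #1 (adjusted p = 0.019) and -0.11 ± 0.12 in clone #2 (adjusted p = 0.90), and the clones differed by 0.59 ± 0.12 (adjusted p = 0.0039). As a plain ratio of mean CPM, footprints per mRNA of ATF4 were 0.294 in MCTS1 KO #1 and 0.206 in MCTS1 KO #2, against 0.209 in WT. The mean change of ATF4 was 0.41 without WT Ribo-seq replicate 2 (adjusted p = 0.003) and 0.038 without WT Ribo-seq replicate 1 (adjusted p = 0.91). The value was -0.45 ± 0.27 for PPP1R15A (adjusted p = 0.59), 0.26 ± 0.19 for ATF5 (adjusted p = 0.68) and 0.08 ± 0.09 for PPP1R15B (adjusted p = 0.84). A fall of ATF4 footprints per mRNA was called in neither clone.

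Depletion of DENR, the other partner, was set against siControl. Here ATF4 and PPP1R15B were lower both as mRNA and as footprints. In RNA-seq ATF4 had 105 and 99.3 CPM in siDENR #1 and 126 and 119.8 CPM in siDENR #2, against 128 and 135 CPM in siControl. All 4 siDENR libraries lay below both controls, siDENR #2 by little. ATF4 mRNA fell by 0.26 on the log2 scale (-0.26 ± 0.05, adjusted p = 2.3e-04), with -0.36 ± 0.06 for siDENR #1 (adjusted p = 8.8e-06) and -0.15 ± 0.06 for siDENR #2 (adjusted p = 0.088). Without siControl replicate 2 the mean was -0.20 and no longer called (adjusted p = 0.079).

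PPP1R15B mRNA had 14.6 and 17.1 CPM in siDENR #1 and 20.0 and 20.8 CPM in siDENR #2, against 24.0 and 23.1 CPM in siControl. No siDENR library reached a control. The change was -0.41 ± 0.07 (adjusted p = 4.3e-06), and each siRNA alone was called, at -0.57 for siDENR #1 and -0.26 for siDENR #2. DDIT3 changed by -0.29 ± 0.12 (adjusted p = 0.086), with 1.91 and 2.01 CPM in siDENR #1 and 2.63 and 2.28 CPM in siDENR #2, against 2.57 and 2.67 CPM in siControl, and siDENR #1 alone was called (-0.42, adjusted p = 0.025).

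ATF5 and PPP1R15A were not called on the mean of the siRNAs. For ATF5 the siRNAs went opposite ways, with 6.74 and 6.21 CPM in siDENR #1 and 4.78 and 4.14 CPM in siDENR #2, against 5.30 and 5.85 CPM in siControl. The changes were 0.21 ± 0.11 (adjusted p = 0.16) and -0.38 ± 0.11 (adjusted p = 0.013), and the siRNAs differed by 0.59 ± 0.11 (adjusted p = 5.0e-05). PPP1R15A had 4.57 to 5.43 CPM over the 4 siDENR libraries, against 4.85 and 5.02 CPM in siControl, a change of -0.03 ± 0.10 (adjusted p = 0.85). Thus 2 of the 5 mRNAs were called, both lower, where 23.1% of 131311 transcripts were called and 12.9% as lower. Their median change was -0.26, against -0.01 over all transcripts.

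In Ribo-seq ATF4 had 15.3 and 16.3 CPM in siDENR #1 and 21.4 and 19.8 CPM in siDENR #2, against 26.0 and 22.2 CPM in siControl. Every siDENR library lay below both controls, those of siDENR #1 by the wider margin. ATF4 footprints changed by -0.44 ± 0.08 (adjusted p = 1.5e-04), with -0.64 ± 0.10 for siDENR #1 (adjusted p = 4.3e-06) and -0.24 ± 0.10 for siDENR #2 (adjusted p = 0.13). The siRNAs differed by -0.40 ± 0.11 (adjusted p = 0.0068). Without siControl replicate 1 the mean was -0.32 and not called (adjusted p = 0.080).

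PPP1R15B footprints stood at 9.59 and 8.84 CPM in siDENR #1 and 12.6 and 13.3 CPM in siDENR #2, against 13.6 and 14.0 CPM in siControl. The fall lay with siDENR #1, at -0.61 ± 0.13 (adjusted p = 3.8e-04), while siDENR #2 gave -0.12 ± 0.12 (adjusted p = 0.64). The mean of -0.36 ± 0.10 (adjusted p = 0.015) lost its call without siControl replicate 1 (adjusted p = 0.098), siControl replicate 2 (0.17) or siDENR #1 replicate 2 (0.055), and with DESeq2 (0.080). ATF5, DDIT3 and PPP1R15A changed by -0.37 ± 0.31, -0.74 ± 0.56 and -0.33 ± 0.46, none called, the last 2 on 4 to 18 and 3 to 25 footprints per siDENR library. Leaving out 1 library moved DDIT3 between -1.38 and -0.42 and PPP1R15A between -0.90 and -0.036, the ends of both ranges being without siDENR #1 replicate 1 and without siDENR #1 replicate 2. So 2 of the 5 were called, both lower, where 10.4% of 108890 transcripts were called and 6.05% as lower.

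No call on translational efficiency was made for the 5 after DENR depletion either, with edgeR or with DESeq2, where 0.369% of 102515 transcripts were called by edgeR. ATF4, at -0.19 ± 0.09, was the only one with an unadjusted p under 0.05 (adjusted p = 0.52). Its footprints per mRNA, as a plain ratio of mean CPM, were 0.154 in siDENR #1 and 0.168 in siDENR #2, against 0.184 in siControl. Both siRNAs gave a negative value, -0.29 ± 0.11 (adjusted p = 0.29) and -0.08 ± 0.10 (adjusted p = 0.88). PPP1R15B stood at 0.04 ± 0.12 (adjusted p = 0.95). The values of ATF5, DDIT3 and PPP1R15A were -0.30 ± 0.27, -0.45 ± 0.44 and -0.30 ± 0.36.

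**Figure D3:**
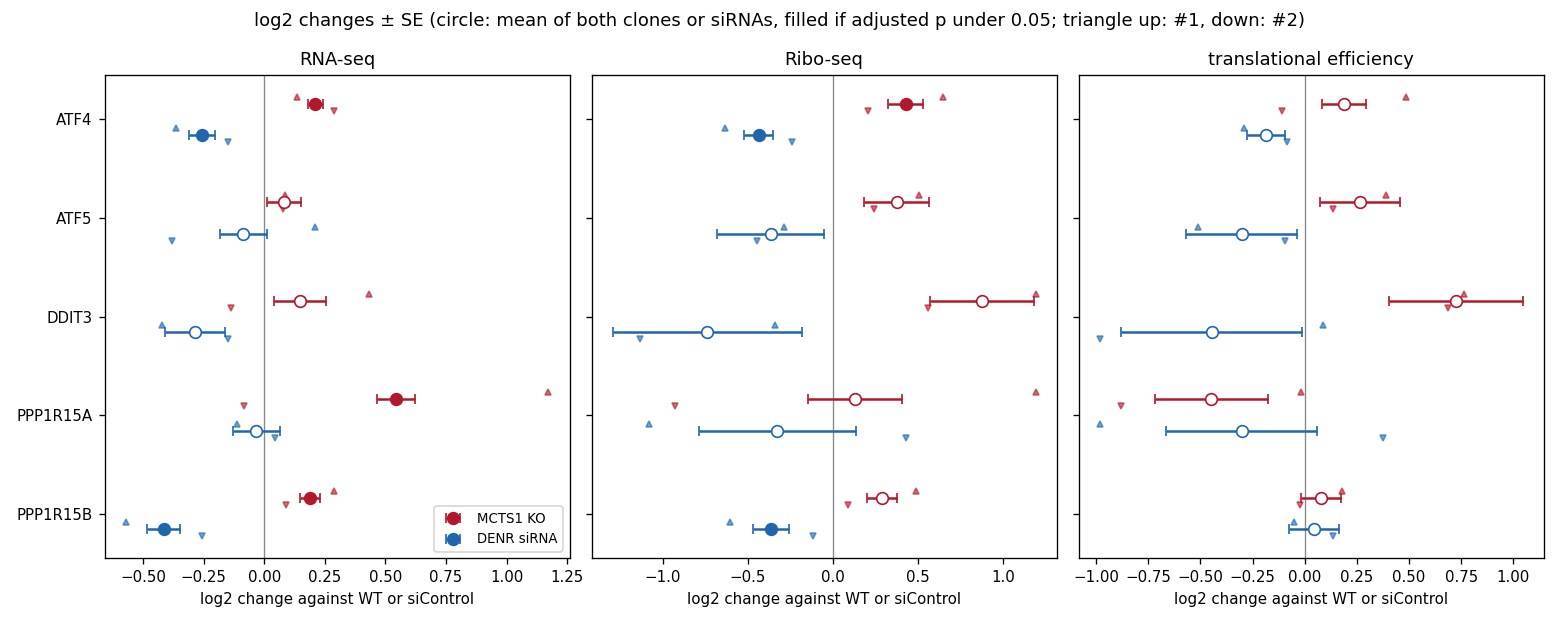
log2 change of each mRNA in RNA-seq, Ribo-seq and translational efficiency for MCTS1 KO against WT (red, upper of each pair) and DENR siRNA against siControl (blue, lower), with bars of ± SE and triangles for clone or siRNA #1 (up) and #2 (down). ATF4 lies right of 0 in RNA-seq and Ribo-seq after MCTS1 KO (0.21 and 0.43) and left of it after DENR siRNA (-0.26 and -0.44), and the triangles of PPP1R15A in MCTS1 KO Ribo-seq lie on opposite sides.

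The effects of losing MCTS1 and of depleting DENR were then tested against each other, each relative to its own control, in a fit over all 6 groups. In RNA-seq the difference was 0.47 ± 0.06 for ATF4 (adjusted p = 1.3e-07), 0.60 ± 0.08 for PPP1R15B (adjusted p = 2.1e-07), 0.58 ± 0.12 for PPP1R15A (adjusted p = 3.0e-04) and 0.43 ± 0.16 for DDIT3 (adjusted p = 0.047), and ATF5 was not called (0.17 ± 0.12, adjusted p = 0.34). So 4 of 5 had a higher change against control, on the mean of the clones, after MCTS1 loss than after DENR depletion. Over all 135066 transcripts 20.2% differed and 10.5% were higher. This compares changes and not levels. PPP1R15A mRNA had 4.57 to 5.43 CPM over the siDENR libraries, above MCTS1 KO #2 (3.28 and 3.07 CPM) and below MCTS1 KO #1 (8.14 and 7.88 CPM). Against WT, PPP1R15A mRNA had changed by 1.17 in clone #1 and -0.08 in clone #2, and DDIT3 mRNA by 0.43 and -0.14. After DENR siRNA they stood at -0.03 and -0.29. The difference was not tested for each clone alone, so the PPP1R15A and DDIT3 calls cannot be ascribed to both clones. The DDIT3 call was lost without any 1 of the 4 control libraries (adjusted p = 0.071 to 0.17), with DESeq2 (adjusted p = 0.11), with library totals only (adjusted p = 0.068) and with no filter (adjusted p = 0.0505). Without DDIT3 the count is 3 of 5.

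In Ribo-seq the changes of ATF4 differed by 0.87 ± 0.13 (adjusted p = 6.2e-05) and those of PPP1R15B by 0.65 ± 0.13 (adjusted p = 0.0011). These were 2 of 5, both with the higher change after MCTS1 KO, where 7.49% of transcripts differed and 4.02% were higher. Both kept the call without any 1 of the 4 WT and siControl libraries. No KO or siDENR library was left out, and no clone or siRNA was taken alone. Against control, ATF4 footprints had changed by 0.65 and 0.21 in clones #1 and #2 and by -0.64 and -0.24 with siDENR #1 and #2. Only the #1 values were called. PPP1R15B footprints in MCTS1 KO #1 (14.2 and 13.4 CPM) lay above siDENR #1 (9.59 and 8.84 CPM). Those in MCTS1 KO #2 (10.5 and 10.4 CPM) lay below siDENR #2 (12.6 and 13.3 CPM). For translational efficiency no difference was called among the 5 by edgeR or DESeq2, where 0.59% of transcripts were by edgeR, and ATF4 stood at 0.39 ± 0.14 (adjusted p = 0.31). DDIT3 also had an unadjusted p under 0.05 there, at 1.18 ± 0.54 (adjusted p = 0.44). A KO and a transient siRNA, and the experiments they come from, cannot be told apart in this difference.

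Both baselines differed from each other as well, by siControl against WT. PPP1R15A mRNA was higher in siControl by 0.52 ± 0.10 (adjusted p = 7.9e-05), PPP1R15B by 0.30 ± 0.07 (adjusted p = 4.4e-04) and DDIT3 by 0.34 ± 0.13 (adjusted p = 0.044), 3 of 5 where 27.3% of transcripts were called and 13.8% as higher. The DDIT3 call was lost without any 1 of the 4 libraries (adjusted p = 0.079 to 0.24) and with DESeq2 (adjusted p = 0.10) or no filter (adjusted p = 0.057). ATF4 mRNA did not pass (-0.07 ± 0.05, adjusted p = 0.35), and neither did ATF5 (0.14 ± 0.10, adjusted p = 0.33). In Ribo-seq PPP1R15B alone was called, at 0.46 ± 0.11 (adjusted p = 0.0032), 1 of 5 where 11.4% of transcripts were called and 5.51% as higher, and ATF4 stood at -0.30 ± 0.11 (adjusted p = 0.067), which passed without WT replicate 1 (-0.48, adjusted p = 6.3e-04) and without siControl replicate 1 (-0.43, adjusted p = 0.042) but shrank to -0.092 without WT replicate 2 (adjusted p = 0.72). No translational efficiency of the 5 was called by edgeR or DESeq2, where 2.8% of transcripts were by edgeR, with only ATF4 at an unadjusted p under 0.05 (-0.27 ± 0.12, adjusted p = 0.22, called without WT Ribo-seq replicate 1 at -0.43 with adjusted p = 0.0067, and -0.054 without WT Ribo-seq replicate 2 with adjusted p = 0.91). Transfection and experiment cannot be told apart here.

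TCP-seq asked whether levels of ribosomal complexes on these mRNAs differ without eIF2D or without MCTS1. These levels are not set against mRNA, and eIF2D KO cells have no RNA-seq. A change in mRNA level and a change in complexes per mRNA thus cannot be told apart. Counts were enough for ATF4 and PPP1R15B. ATF5 had 4 to 18 counts a library and PPP1R15A 2 to 19, and DDIT3, with 2 to 7, did not pass the count filter, so 4 of the 5 were tested. The 4 WT libraries form 2 pairs by the order of library names, and each KO was set against the pair it follows. The labels name no batch.

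ATF4 had 113 and 95.8 CPM in eIF2D KO #1 and 122 and 114 CPM in eIF2D KO #2, against 137 and 121 CPM in WT replicates 1 and 2. Only 1 KO library, of clone #2, reached the lower of those WT libraries. The change of -0.29 ± 0.11 was not called (adjusted p = 0.16), while clone #1 alone gave -0.41 ± 0.12 (adjusted p = 0.049), a call that the other ATF4 transcripts did not share. Against WT replicates 3 and 4, at 140.2 and 134 CPM, it was -0.39 ± 0.11 and called (adjusted p = 0.0064), and against all 4 WT libraries it was not.

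PPP1R15B had 38.5 and 36.9 CPM in eIF2D KO #1 and 28.7 and 31.8 CPM in eIF2D KO #2, against 44.4 and 35.9 CPM in WT replicates 1 and 2. The change was -0.35 ± 0.14 (adjusted p = 0.23). It was called against all 4 WT libraries (-0.53, adjusted p = 0.011) and against WT replicates 3 and 4, at 50.1 and 54.2 CPM (-0.72, adjusted p = 4.2e-05), below both of which all 4 KO libraries lay. In that last setting 2 of 4 mRNAs were called, where 10.4% of transcripts were. ATF5 changed by 0.96 ± 0.51 (adjusted p = 0.43) and PPP1R15A by 0.09 ± 0.48 (adjusted p = 0.96). With WT replicates 1 and 2, 0 of 4 mRNAs were called by edgeR and DESeq2 called 0, where 1.61% of 50991 transcripts were called by edgeR. An unadjusted p under 0.05 was met by 2 of the 4, a looser threshold that the 1.61% does not describe. Which WT pair is used thus decides the calls. Between the WT pairs themselves (replicates 1 and 2 minus 3 and 4) the difference was -0.36 ± 0.16 for PPP1R15B (adjusted p = 0.27) and -0.10 ± 0.12 for ATF4 (adjusted p = 0.81), neither called.

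**Figure D4:**
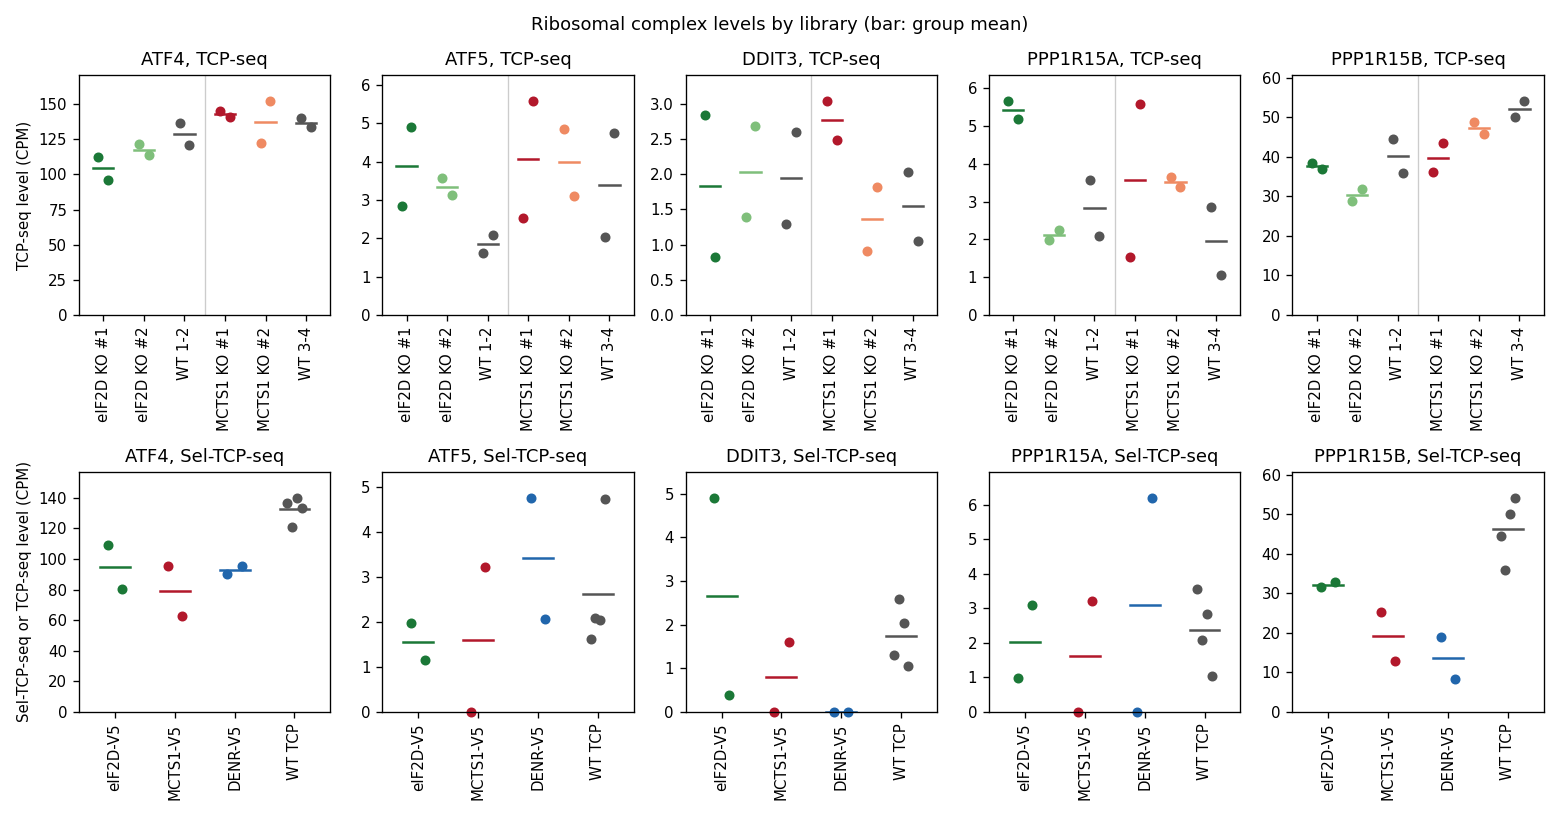
TCP-seq levels (top) and 40S Sel-TCP-seq levels beside WT TCP-seq (bottom) in CPM of the 5 mRNAs, each point a library and each bar a group mean. All 6 Sel-TCP-seq libraries lie below all 4 WT TCP-seq libraries for ATF4 and PPP1R15B, and the panels of ATF5, DDIT3 and PPP1R15A rest on 0 to 19 counts a library.

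Without MCTS1 no difference in the TCP-seq level of ATF4 was detectable. It had 145 and 141 CPM in MCTS1 KO #1 and 123 and 153 CPM in MCTS1 KO #2, against 140.2 and 134 CPM in WT replicates 3 and 4. The groups overlapped, and the change was 0.00 ± 0.11 (adjusted p = 0.99). PPP1R15B had 36.1 and 43.5 CPM in MCTS1 KO #1 and 48.9 and 45.7 CPM in MCTS1 KO #2, against 50.1 and 54.2 CPM in the same WT libraries, all 4 KO libraries below both. Its change of -0.30 ± 0.14 was not called (adjusted p = 0.14), and against WT replicates 1 and 2 it was 0.06 ± 0.14 (adjusted p = 0.86). ATF5 changed by 0.25 ± 0.48 and PPP1R15A by 0.70 ± 0.55. So 0 of 4 were called by edgeR and DESeq2 called 0, where 13.8% of transcripts were called by edgeR. An unadjusted p under 0.05 was met by 1 of the 4, a looser threshold that the 13.8% does not describe.

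Sel-TCP-seq asked whether 40S subunits bound by each factor lie on these mRNAs. ATF4 and PPP1R15B, 2 of the 5, passed the count filter. ATF4 had 111 and 207 counts (109 and 80.1 CPM) with eIF2D-V5, against 34 and 39 counts (95.5 and 62.7 CPM) with MCTS1-V5 and 57 and 46 counts (90.5 and 95.3 CPM) with DENR-V5. The 3 proteins overlapped, and eIF2D-V5 minus the mean of the other 2 was -0.00 ± 0.28 (adjusted p = 0.99).

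PPP1R15B had 32 and 85 counts (31.5 and 32.9 CPM) with eIF2D-V5, against 9 and 8 counts (25.3 and 12.9 CPM) with MCTS1-V5 and 12 and 4 counts (19.1 and 8.29 CPM) with DENR-V5. Both eIF2D-V5 libraries lay above all 4 of the others. The difference of 0.86 ± 0.39 was not called (adjusted p = 0.12), but it was without MCTS1-V5 replicate 1 (1.15, adjusted p = 0.024) and with the replicate number as a term (0.93, adjusted p = 0.021). Leaving out 1 library moved it between 0.50, without MCTS1-V5 replicate 2 (adjusted p = 0.34), and 1.20, without DENR-V5 replicate 1 (adjusted p = 0.11). None of the 2 was called by edgeR and none by DESeq2, where 22.1% of 12135 transcripts were called by edgeR. The counts of the MCTS1-V5 replicates differed most of all replicate pairs compared, with a mean chi-square of 9.15 per transcript, and its part in these values was not tested. DDIT3 had 0 counts in MCTS1-V5 replicate 1 and in both DENR-V5 libraries, which allows up to 8.43, 4.76 and 6.22 CPM, and 1 to 5 counts in the others. ATF5 had 0 to 3 and PPP1R15A 0 to 8 counts.

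Set against the unselected WT TCP-seq libraries, PPP1R15B was lower in the complexes held by MCTS1-V5 and DENR-V5, by -1.35 ± 0.29 (adjusted p = 2.8e-04), and this held without any 1 of the 10 libraries. ATF4 stood at -0.47 ± 0.19 (adjusted p = 0.067), called without MCTS1-V5 replicate 1 (-0.68, adjusted p = 0.013), without WT replicate 2 (-0.53, adjusted p = 0.048) or without eIF2D-V5 replicate 2 (-0.49, adjusted p = 0.036), and it ranged from -0.68 to -0.35 (adjusted p up to 0.32) as single libraries were left out. Thus 1 of 2 was called, lower, where 24.1% of 35013 transcripts were called and 16% as lower. With eIF2D-V5 the changes were -0.51 ± 0.22 for ATF4 (adjusted p = 0.060) and -0.52 ± 0.25 for PPP1R15B (adjusted p = 0.098), 0 of 2 called by edgeR or DESeq2, where 36% of transcripts were called by edgeR. That of ATF4 was called without either MCTS1-V5 library (adjusted p = 0.035 each) or without eIF2D-V5 replicate 1 (-0.81, adjusted p = 0.024), and it was -0.21 without eIF2D-V5 replicate 2 (adjusted p = 0.68). The median change over all transcripts was -0.13 for MCTS1-V5 and DENR-V5 and -0.03 for eIF2D-V5. The selection, the 40S fraction and the tagged cells cannot be told apart in these comparisons, and both share the WT libraries.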

How the data were processed

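The authors deposited whole-number counts per transcript identifier for 42 libraries, and 10 more of the 52 labelled samples (TCP-seq of cells with empty vector or added eIF2D) are not analysed here. STAR, cutadapt, Subread and featureCounts, with the builds GRCh38.p13 and hg38, are named in the submitters' processing notes. Neither versions nor strand use, the features counted or the handling of reads over several transcripts are stated there. Transcripts of a gene can share reads, so PPP1R15A, DDIT3 and the others may hold reads of overlapping features, and ATF4 was taken as 1 measurement. The members and lists were chosen with earlier results of these data known.

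Counts were tested with edgeR 4.0.16 (R 4.3.3; quasi-likelihood, robust fit, TMM factors, filterByExpr with a minimum count of 10), with p-values adjusted by Benjamini-Hochberg over all transcripts that passed the filter and called under 0.05. Each comparison is the mean of both clones or siRNAs minus the control, so its p-value leaves out the spread between them. SE was taken as |log2 change| divided by the root of F. Translational efficiency is the interaction of group and assay. siControl against WT, and MCTS1 KO minus DENR siRNA, came from a fit over all 6 groups, and the second was added after the data had been seen. TCP-seq was 1 fit of 12 libraries with WT replicates 1 and 2 apart from 3 and 4. Some of the fits were tested on simulated data with a fixed spread and no differences between clones. That test does not cover the spread seen here. A count of 0 was taken to allow 3 counts, a limit that covers counting error only. Every member is named with its values by rule. Alternatives were DESeq2 1.42.0, library totals as the only scaling, no filter, 1 row per distinct count profile (190421), the replicate number as a term, each clone or siRNA alone, other WT replicates and leaving out each library. In the fit over all 6 groups only WT and siControl libraries were left out. No KO or siDENR library was left out there, and no clone or siRNA was taken alone. Sequences are RefSeq's. No pairing of other identifiers with gene names was used, so the targeted genes and lists of pathway genes were not tested.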

Additional observations from a re-analysis of the deposited data

Results flagged for a closer look

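ATF5 in WT TCP-seq had 1 library apart from the others, with 4.74 CPM in replicate 4 against 1.62 to 2.08 CPM in the rest. The gap was 0.853 of the group's range. It rests on 4 to 9 counts a library, and how often counts so low give such a gap was not tested.

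Some effects differed between MCTS1 KO and DENR siRNA (MCTS1 KO minus DENR siRNA, adjusted p under 0.05, edgeR). On the log2 scale in RNA-seq they were 0.58 for PPP1R15A, 0.47 for ATF4, 0.43 for DDIT3 and 0.60 for PPP1R15B. There 20.2% of all transcripts differed, and DDIT3 was not called with DESeq2 (adjusted p = 0.11). In Ribo-seq the differences were 0.87 for ATF4 and 0.65 for PPP1R15B, where 7.49% of transcripts differed.

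Between the MCTS1 KO clones (#1 minus #2), RNA-seq differed by 1.26 for PPP1R15A, -0.15 for ATF4, 0.57 for DDIT3 and 0.20 for PPP1R15B, where 45.8% of all transcripts differed. Ribo-seq differed by 2.12 for PPP1R15A, 0.44 for ATF4 and 0.40 for PPP1R15B, where 18.6% did, and translational efficiency by 0.59 for ATF4, where 6.27% did. For ATF4 the clone with the lower mRNA level was thus the one with more footprints.

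Between the DENR siRNAs (#1 minus #2), RNA-seq differed by -0.21 for ATF4, -0.32 for PPP1R15B and 0.59 for ATF5, where 24.8% of transcripts differed, and Ribo-seq by -0.40 for ATF4 and -0.49 for PPP1R15B, where 11.1% did.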

How the results depend on the processing

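Over 17 comparisons, 861 of the alternative log2 values kept direction and side of the threshold, 29 gained a call, 27 lost one and 41 changed sign. With clone or siRNA #2 alone, the number of genes called was 1 in MCTS1 KO RNA-seq, 0 in MCTS1 KO Ribo-seq and 0 in DENR siRNA Ribo-seq, where 14.9%, 3.61% and 9.21% of all transcripts were called. With #1 alone it was 4 in MCTS1 KO Ribo-seq, 1 in MCTS1 KO translational efficiency and 1 in eIF2D KO TCP-seq, where 16.6%, 5.4% and 1.84% were. In #2 alone the sign turned for DDIT3 (-0.14) and PPP1R15A (-0.082) in MCTS1 KO RNA-seq, PPP1R15A in MCTS1 KO Ribo-seq (-0.93), ATF4 (-0.11) and PPP1R15B (-0.023) in MCTS1 KO translational efficiency, PPP1R15A after DENR siRNA in RNA-seq (0.046), Ribo-seq (0.43) and translational efficiency (0.38), PPP1R15A in eIF2D KO TCP-seq (-0.57) and ATF4 in MCTS1 KO TCP-seq (-0.067). In #1 alone it turned after DENR siRNA for ATF5 mRNA (0.21) and for the translational efficiency of DDIT3 (0.089) and PPP1R15B (-0.050).

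With no filter 2 genes were called in MCTS1 KO Ribo-seq, 2 in siControl Ribo-seq and 2 in MCTS1-V5 and DENR-V5 against TCP-seq. That last count was also 2 with library totals only, and DESeq2 called 1 in DENR siRNA Ribo-seq. The sign turned for ATF5 in siControl translational efficiency with no filter (-0.030), PPP1R15A in siControl Ribo-seq with library totals only (0.018), ATF4 in MCTS1 KO TCP-seq with DESeq2 (-0.0056) and ATF4 in eIF2D-V5 Sel-TCP-seq with library totals only (0.15) or no filter (0.17). For eIF2D KO TCP-seq 2 genes were called against the other WT replicates, where 10.4% of transcripts were, and 1 against all 4. PPP1R15B in MCTS1 KO TCP-seq turned to 0.063 against the other WT replicates. The cause was not tested.

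Replicate numbers are shared between groups, but same-numbered libraries did not deviate together in every pair (r = -0.24 to 0.42 over transcripts). With the replicate block, MCTS1 KO Ribo-seq called 0 genes (ATF4 at 0.43, adjusted p = 0.080) and eIF2D-V5 Sel-TCP-seq 1 (PPP1R15B at 0.93, adjusted p = 0.021; ATF4 turned to 0.00024), and the block changed no other count of genes called. In Sel-TCP-seq against TCP-seq, where the block was added after the data had been seen, PPP1R15B stood at -1.12 with MCTS1-V5 and DENR-V5 (adjusted p = 0.0064) and at -0.25 with eIF2D-V5 (adjusted p = 0.54). No paired analysis was possible for MCTS1 KO TCP-seq because its libraries, numbered 1 and 2, were compared with WT replicates 3 and 4.

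Leaving out 1 library at a time, where a group of 1 is assumed to vary like the others, the number of genes called ran from 0 to 2 in MCTS1 KO Ribo-seq, 0 to 1 in MCTS1 KO translational efficiency, 1 to 2 in DENR siRNA RNA-seq, 0 to 2 in DENR siRNA Ribo-seq, 1 to 2 in siControl Ribo-seq, 0 to 1 in siControl translational efficiency, 0 to 1 in eIF2D-V5 Sel-TCP-seq, 1 to 2 in MCTS1-V5 and DENR-V5 against TCP-seq, 0 to 1 in eIF2D-V5 against TCP-seq and 0 to 1 in translational efficiency of MCTS1 KO minus DENR siRNA, the last without WT Ribo-seq replicate 2 (ATF4 at 0.59). Values of genes that were not called crossed 0, with ranges of -0.032 to 0.45 (PPP1R15A, MCTS1 KO Ribo-seq), -0.16 to 0.0078 (ATF5, DENR siRNA RNA-seq), -0.071 to 0.011 (PPP1R15A, DENR siRNA RNA-seq), -0.0074 to 0.10 (PPP1R15B, DENR siRNA translational efficiency), -0.19 to 0.28 (PPP1R15A, siControl Ribo-seq), -0.12 to 0.15 (ATF5, siControl translational efficiency), -0.12 to 0.56 (PPP1R15A, eIF2D KO TCP-seq), -0.081 to 0.076 (ATF4, MCTS1 KO TCP-seq), -0.36 to 0.95 (ATF5, MCTS1 KO TCP-seq), -0.28 to 0.28 (ATF4, eIF2D-V5 Sel-TCP-seq) and -0.32 to 0.18 (PPP1R15A, translational efficiency of MCTS1 KO minus DENR siRNA).

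The number of all transcripts called, which sets the background shares, moved by more than 1.5 times in most comparisons. Where a setting above has no percentage, its share of all transcripts is not given. Its count of genes called thus has no background beside it, and the share of the main fit cannot stand in. It was 32826 (19290 to 55695 over the alternatives) in MCTS1 KO RNA-seq, 7037 (2535 to 19132) in MCTS1 KO Ribo-seq, 948 (131 to 5872) in MCTS1 KO translational efficiency, 30382 (14731 to 40736) in DENR siRNA RNA-seq, 11348 (5728 to 11593) in DENR siRNA Ribo-seq, 378 (139 to 766) in DENR siRNA translational efficiency, 823 (35 to 5294) in eIF2D KO TCP-seq, 7054 (2225 to 9758) in MCTS1 KO TCP-seq, 2682 (802 to 4607) in eIF2D-V5 Sel-TCP-seq, 8430 (5546 to 9758) in MCTS1-V5 and DENR-V5 against TCP-seq and 12594 (3620 to 16574) in eIF2D-V5 against TCP-seq. For siControl against WT it was 36838 (21941 to 36796), 13171 (7666 to 13345) and 3035 (1224 to 5619), and for MCTS1 KO minus DENR siRNA 27314 (18460 to 27415), 8639 (5542 to 9302) and 640 (423 to 2060), in RNA-seq, Ribo-seq and translational efficiency. Depth limits DDIT3 and PPP1R15A in Ribo-seq, and ATF5, DDIT3 and PPP1R15A in TCP-seq and Sel-TCP-seq, where counts of a few reads cannot show a moderate change.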

Other observations

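By Pearson's r of log2(CPM + 0.5) over the 12 RNA-seq libraries, the transcripts most like ATF4 among 39982 with a mean of at least 5 CPM were ENST00000533802.5 (r = 0.97) and ENST00000496641.1 (r = 0.96). Over the 12 Ribo-seq libraries, among 34261, they were ENST00000527419.5 (r = 0.99) and ENST00000554413.1 (r = 0.97). The libraries of a group and its control are shared by all of these, no gene name was paired with the identifiers here, and such values among so many transcripts are a description only.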
